A study of Mus musculus with 12 samples.

Results

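Satellite cells from mice over 1 year old were compared with satellite cells from adult mice of 2 to 3 months. The comparison rests on 6 of the study's 12 microarrays, 3 aged and 3 adult. It covers 19938 genes, each read by the probe set that carries that gene symbol alone and has the highest mean over all 12 arrays. Values are log2 array signals as deposited, so a difference of 1 is a 2-fold change, and a difference is aged minus adult throughout.

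Satellite cells are the resident stem cells of skeletal muscle. They lie between the muscle fibre and its basement membrane, carry the transcription factor Pax7, and rest outside the cell cycle in healthy adult muscle. After injury they divide, switch on Myod1 and then Myog, and fuse into new fibres, while some return to rest. In old mice fewer cells make this return, and Notch, FGF, JAK-STAT and p38 MAPK signals are among those that have been tied to the change.

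The mice were of the C57BL/6 strain by label and carried 1 copy of a Pax7-ZsGreen reporter, which makes Pax7-expressing cells fluoresce green. Wild type SV129 mice served as the negative control of the sort, and gates were set for each age. Aged and adult cells were ZsGreen+ cells from hindlimb muscle digested with collagenase and dispase, pooled from 8 aged and 8 adult mice. The other stages, used for the shared estimate of spread, were fetal cells from fore- and hindlimbs at E17.5 (4 mice) and adolescent hindlimb cells at postnatal day 21 (6 mice), with 3 arrays each. The labels do not say that the 3 arrays of a stage came from separate mice or pools, so the p-values measure only how far these samples differed, and that spread may be technical. In bulk cells, a larger number of cells of a type and more RNA per cell cannot be told apart.

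Several arrays stood apart within their stage. Genes of the G2 and M phases of the cell cycle, a list of 33, averaged 6.27, 5.53 and 5.52 on aged replicates 1, 2 and 3, against 7.42, 5.75 and 5.74 on adult replicates 1, 2 and 3, so adult replicate 1 was high. Olfactory and vomeronasal receptor probe sets, 1205 in number and not expected to be transcribed in muscle, served as a measure of background. They averaged 4.30, 3.81 and 3.84 on the aged arrays, against 3.83, 4.46 and 4.50 on the adult arrays, and between 3.79 and 3.91 on the 6 younger arrays. Replicates 2 and 3 were closer to each other than to replicate 1 in both stages: across genes, Pearson's r was 0.9971 between aged replicates 2 and 3, against 0.9962 between adult replicates 2 and 3. Replicate 1 correlated with those at 0.9839 and 0.9866 in aged cells, against 0.9732 and 0.9721 in adult cells. Adult replicate 1 was closer to the aged arrays (0.9825, 0.9818 and 0.9828) and to the adolescent arrays (0.9838, 0.9853 and 0.9853). Aged replicate 1 correlated with adult replicates 2 and 3 at 0.986 and 0.9854, so these arrays did not group cleanly by stage. The number of arrays limits the precision of all values.

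**Figure D1:**
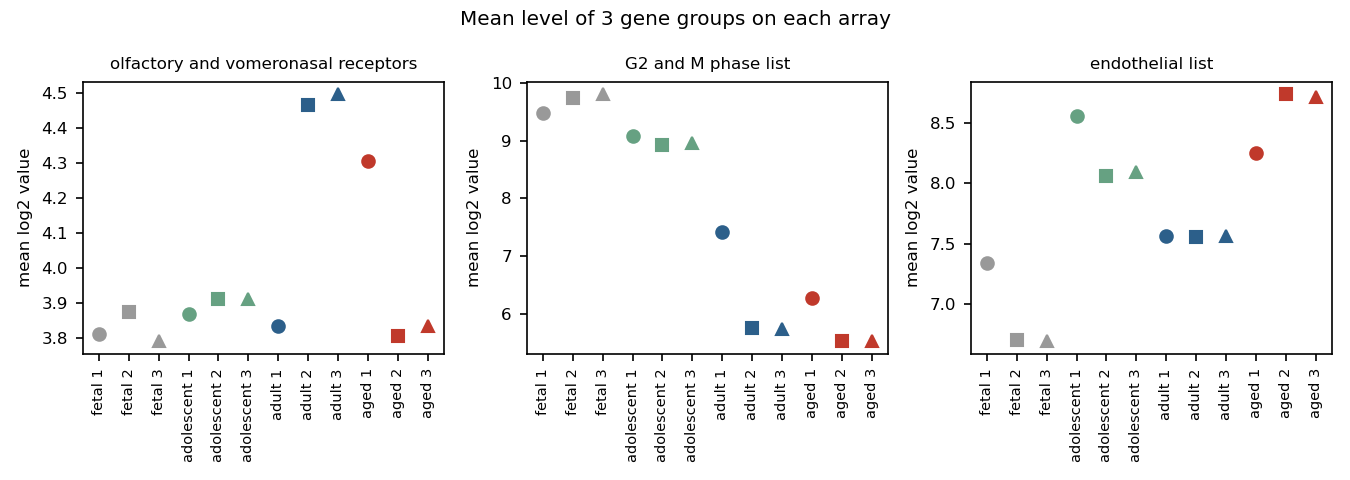
Mean log2 value on each of the 12 arrays of olfactory and vomeronasal receptor probe sets (left), of the G2 and M phase list (middle) and of the endothelial marker list (right), with colour for stage and symbol for replicate. Aged replicate 1 and adult replicates 2 and 3 are high for the receptors, adult replicate 1 is high among adult arrays for the cell cycle list, and all 3 aged arrays lie above all 3 adult arrays for the endothelial list.

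By limma's moderated test, with a gene called where its p, adjusted by Benjamini-Hochberg across the whole table, was under 0.05, 697 of 19938 genes (3.5%) passed. Of these, 654 genes (3.28% of all) were higher in aged cells, with a median difference of 0.73, and 43 genes (0.216%) were lower, with a median of -0.56. The median over all genes was -0.01. At least 2-fold differences numbered 155, of which 154 were higher in aged cells and 1, Actc1, was lower. The aged and adult values did not overlap for any of the 697 genes, and groups did not overlap for 16% of all genes (10.2% higher and 5.78% lower in aged cells). The adult to adolescent step, which shares the adult arrays, called 19.8% of genes by the same rule.

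The count depended strongly on single arrays. It was 7844 genes (4042 higher and 3802 lower) without adult replicate 1 and 2214 without aged replicate 1. It was 269 and 289 without adult replicates 2 and 3, and 214 and 216 without aged replicates 2 and 3. Of the 697 genes, 194 passed whichever of the 6 arrays was left out, 193 of them higher in aged cells and 1, Ret, lower. When the mean of replicates 2 and 3 stood in for both in each stage, a setting added once their likeness had been seen, 2 genes passed (1047 at an unadjusted p under 0.05): Doc2b (1.75 ± 0.16, adjusted p = 0.0383) and Btla (1.62 ± 0.16, adjusted p = 0.0432). With quantile normalization repeated the split was 621 higher and 147 lower, with arrays centred on their medians 514 and 62, and with array background as a covariate 598 and 111.

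**Figure D2:**
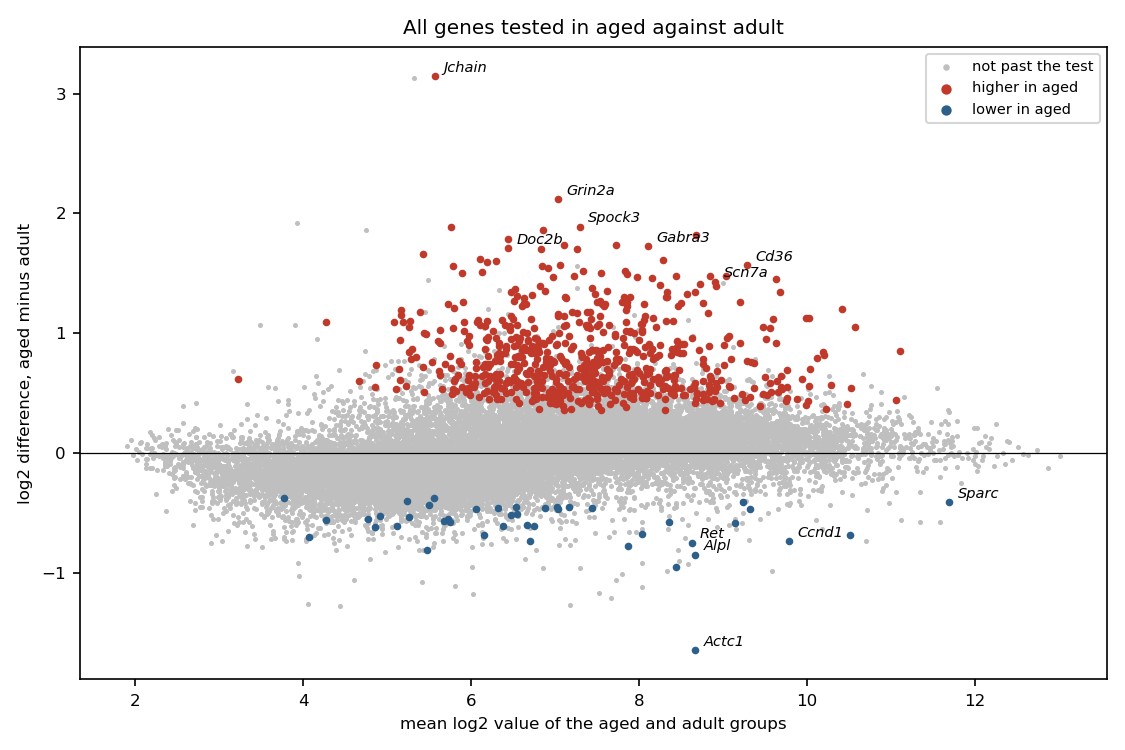
Log2 difference, aged minus adult, against the mean log2 value of the 2 groups for all 19938 genes. The 654 genes higher in aged cells (red) extend to Jchain at 3.15, a gene at background level on 2 adult arrays, and the 43 genes lower in aged cells (blue) extend to Actc1 at -1.65.

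The genes that define satellite cells were expressed in both groups, as the label of the sorted cells has it. Their list averaged 9.71, 9.77 and 9.80 on the aged arrays, against 9.86, 9.68 and 9.68 on the adult arrays. Pax7 had 11.51, 11.67 and 11.71 on aged replicates 1, 2 and 3, against 11.45, 11.66 and 11.69 on adult replicates 1, 2 and 3, a difference of 0.03 ± 0.10 (SE from the limma fit over all 4 stages, n = 3 each, as for every gene here; adjusted p = 0.864). The aged and adult arrays overlapped. Of 26 measured identity genes 1 rose and 0 fell (3.85%, near the 3.5% of all genes), and their median difference was 0.01. The one that rose was Sdc3, a heparan sulphate proteoglycan of the satellite cell surface, at 8.21, 8.20 and 8.33 on the aged arrays, against 7.79, 7.46 and 7.51 on the adult arrays (0.66 ± 0.12, adjusted p = 0.00807).

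Regulators of rest and activation mostly did not pass either. The differences of Calcr, the calcitonin receptor of resting cells, Spry1, a brake on FGF signals, and Notch3 were 0.06 ± 0.09, 0.07 ± 0.09 and 0.20 ± 0.11. Those of the myogenic factors Myf5 and Myod1 were 0.21 ± 0.12 and -0.21 ± 0.11. Without adult replicate 1 Myf5 passed, at 0.36 ± 0.09 (adjusted p = 0.0122). Myog, the factor of differentiation, had 7.38, 6.81 and 6.62 on the aged arrays, against 9.5, 7.32 and 7.49 on the adult arrays (-1.17 ± 0.44, adjusted p = 0.173). The groups overlapped for Myog, and adult replicate 1 was the high array.

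Of 33 quiescence genes 2 rose and 1 fell (9.09%, against 3.5% of all genes), with a median of 0.12. Hes1, a Notch target, had 10.16, 9.84 and 9.89 in aged cells, against 9.61, 9.5 and 9.49 in adult cells (0.43 ± 0.10, adjusted p = 0.0385). Rgs5, a brake on G protein signals that also marks pericytes, rose by 0.89 ± 0.22, and Col6a1, a chain of collagen VI, fell by 0.41 on the log2 scale (SE 0.09). Of 27 genes of commitment and fusion, Jam2, an adhesion protein shared by myoblasts and endothelium, and Myof, a membrane repair and fusion protein, rose (1.39 ± 0.16 and 0.60 ± 0.12), while Actc1, cardiac actin, fell. These calls made up 11.1% of the commitment and fusion list, against 3.5% of all genes. None of the 31 mature fibre genes passed.

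Grin2a, Gabra3, Doc2b, Anks1b, Neto1 and Slc24a2 were among the 20 largest rises with no overlap, and Scn7a came from the neuronal-type list. Grin2a, a subunit of the NMDA glutamate receptor, had 7.51, 8.46 and 8.31 on the aged arrays, against 5.66, 6.22 and 6.06 on the adult arrays, which is 4.34-fold higher (2.12 ± 0.22, adjusted p = 0.000502). Gabra3, a subunit of the GABA-A receptor, had 9.08, 9.02 and 8.83 in aged cells, against 7.49, 7.06 and 7.17 in adult cells (1.73 ± 0.17, adjusted p = 0.000288). In both genes the lowest aged array lay more than 1 log2 unit above the highest adult array.

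Doc2b, a calcium sensor of vesicle release, had 7.25, 7.47 and 7.18 in aged cells, against 5.37, 5.57 and 5.83 in adult cells (1.71 ± 0.12, adjusted p = 5.26e-05). Scn7a, a sodium channel that senses sodium rather than carrying impulses, had 9.54, 9.70 and 9.61 in aged cells, against 8.07, 8.24 and 8.26 in adult cells (1.43 ± 0.11, adjusted p = 0.000113). The aged arrays agreed closely for Scn7a, including the replicate with high background. Anks1b, a postsynaptic scaffold protein, Neto1, an auxiliary subunit of glutamate receptors, and Slc24a2, an exchanger of sodium for calcium and potassium, rose by 1.86 ± 0.16, 1.59 ± 0.13 and 1.74 ± 0.16. All 7 of these genes were higher on every aged array than on any fetal, adolescent or adult array, and all 7 passed in each of the 6 fits that left out an array.

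The list of neuronal-type genes had rises and falls. Of its 42 measured members 5 rose and 1 fell (14.3%, against 3.5% of all genes), and their median difference was -0.17. The risers were Gabra3, Scn7a, Gria3, an AMPA receptor subunit (1.06 ± 0.18), Gabre, another GABA-A receptor subunit (0.84 ± 0.13), and the guidance factor Slit2 (0.54 ± 0.11). Ret, the receptor tyrosine kinase for the GDNF family, had 8.15, 8.29 and 8.31 on the aged arrays, against 9.15, 8.89 and 8.95 on the adult arrays (-0.75 ± 0.13, adjusted p = 0.00872). The fall of Ret was the only one that passed in all 6 fits without an array. The list had been put together with earlier results of these arrays known, so its risers are no independent evidence of a direction.

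**Figure D3:**
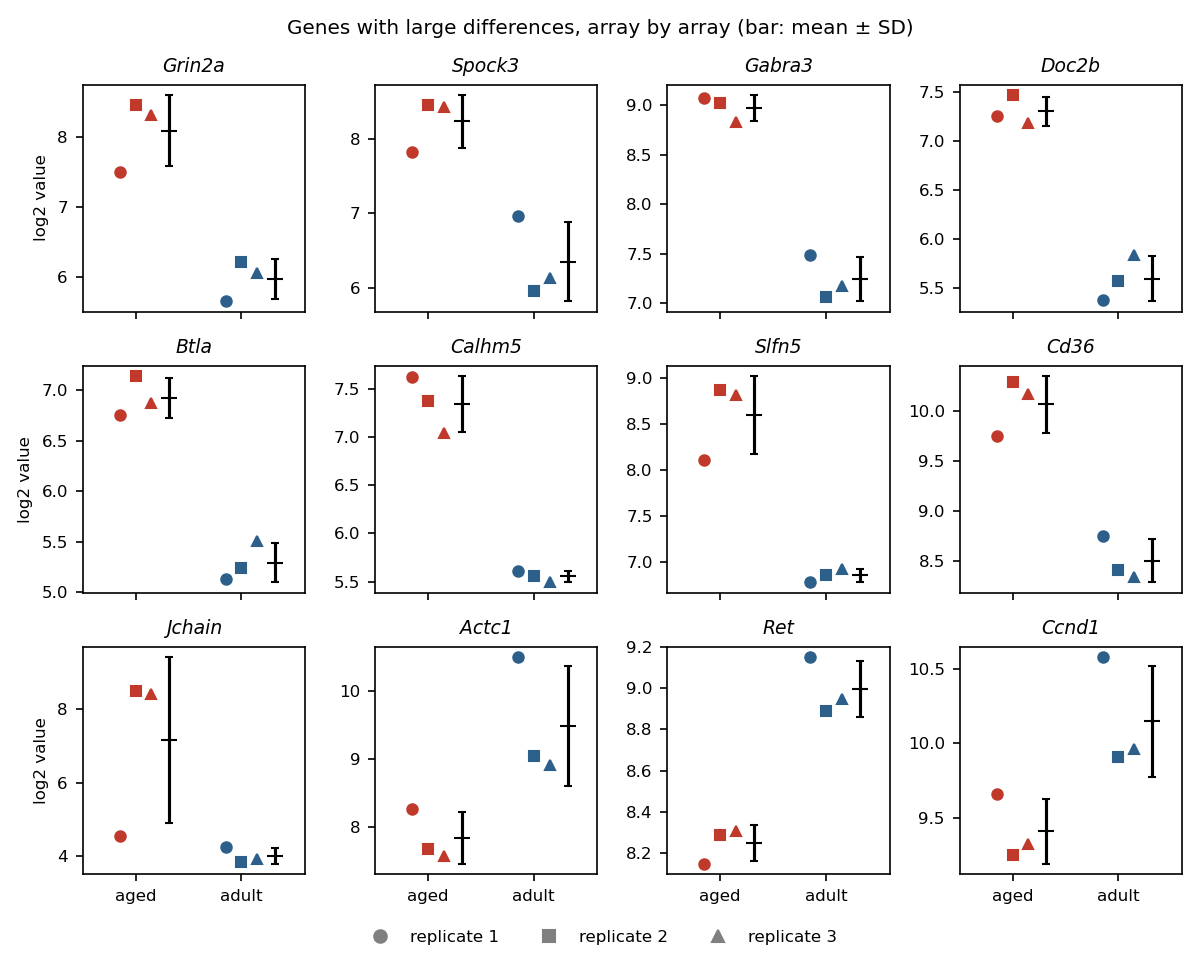
Log2 values on the 3 aged (red, left) and 3 adult (blue, right) arrays for 12 genes, with the replicate shown by symbol and mean ± SD in black; each panel has its own axis, which does not start at 0. Of the 9 rises, 8 have all aged arrays well above all adult arrays, while Jchain is high on aged replicates 2 and 3 only, at 8.50 and 8.42 against 4.54 on aged replicate 1.

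Other large rises came from several families. Spock3, a matrix proteoglycan, had 7.83, 8.46 and 8.43 in aged cells, against 6.96, 5.96 and 6.13 in adult cells (1.89 ± 0.23). Rassf9, which binds Ras proteins on endosomes, had 5.98, 7.09 and 7.02 in aged cells, against 4.81, 4.82 and 4.80 in adult cells (1.89 ± 0.28). Calhm5, of a family of ion channels, had 7.62, 7.37 and 7.04 in aged cells, against 5.61, 5.56 and 5.49 in adult cells (1.79 ± 0.19). The aged and adult arrays did not overlap in any of the 3 genes, and aged replicate 1 was the lowest aged array for Spock3 and Rassf9 and the highest for Calhm5.

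Cyp26a1, which breaks down retinoic acid, had 6.12, 6.35 and 6.3 in aged cells, against 4.80, 4.56 and 4.43 in adult cells (1.66 ± 0.12, adjusted p = 5.26e-05). Btla, an inhibitory receptor known from lymphocytes, had 6.75, 7.14 and 6.87 in aged cells, against 5.13, 5.24 and 5.51 in adult cells (1.62 ± 0.14). Cyp26a1 was near or under the mean receptor signal on adult replicates 2 and 3, so the size of its difference is uncertain. Both passed whichever array was left out. Slfn5, a schlafen protein of the interferon response, and Cxcl13, a chemokine for B cells, rose by 1.74 ± 0.24 and 1.57 ± 0.25, and Prkch, a protein kinase C, by 1.56 ± 0.23. Fmo2, a flavin monooxygenase, Cytl1, a secreted cytokine-like protein, and C1s1, a protease of the complement cascade, rose by 1.70 ± 0.32, 1.70 ± 0.38 and 1.6 ± 0.29. These last 3 were called in only 3, 2 and 3 of the 6 fits without an array.

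Genes of endothelial cells, the lining of blood vessels, formed the list with the highest share of calls. Of 21 measured markers 15 rose and 0 fell (71.4%, against 3.28% of all genes higher in aged cells), and their median difference was 0.94. The groups did not overlap for any of the 21, with the aged side higher each time, against 10.2% of all genes. The list averaged 8.25, 8.74 and 8.71 on the aged arrays, against 7.56, 7.55 and 7.56 on the adult arrays. It averaged 8.56, 8.06 and 8.09 on the adolescent arrays and 7.34, 6.7 and 6.69 on the fetal arrays. The adult arrays were thus below all adolescent arrays, and the list did not rise steadily with age. Most of the 21 markers were not higher on all aged arrays than on the other 9 arrays. The 3 that were made up a larger share than the 4.72% of all genes. The adult arrays were level, including the cycling adult replicate 1, and every marker was above the mean receptor signal of its array.

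Kdr, the main VEGF receptor, had 8.29, 9.03 and 8.79 in aged cells, against 7.02, 7.32 and 7.37 in adult cells (1.47 ± 0.25, adjusted p = 0.00639). Cdh5, the cadherin of endothelial junctions, had 10.29, 10.75 and 10.74 in aged cells, against 9.68, 9.34 and 9.36 in adult cells (1.13 ± 0.26, adjusted p = 0.0339). Tie1, a receptor of the angiopoietin system, had 8.02, 8.13 and 8.04 in aged cells, against 6.74, 7.05 and 7.18 in adult cells (1.08 ± 0.17, adjusted p = 0.00405). Aged replicate 1 was the lowest aged array in each, but still above every adult array.

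Ptprb, an endothelial phosphatase, Pecam1, an adhesion protein of endothelium and platelets, Flt1, another VEGF receptor, and Esam, a junction protein, rose by 1.48 ± 0.32, 1.40 ± 0.33, 1.34 ± 0.26 and 1.23 ± 0.20. Tek, Emcn, Eng, Cldn5, Vwf and Erg did not pass, with differences between 0.60 and 1.42. Without adult replicate 1, 19 of the 21 passed, against 20.3% of all genes higher in aged cells in that fit. With array background as a covariate 8 did, and 4 (Kdr, Tie1, Esam and Fabp4) passed in all 6 fits without an array. Adgrl4, an adhesion receptor of endothelial cells outside the list, rose by 1.61 ± 0.32 and stood at 8.69, 9.38 and 9.20 in aged cells, against 7.59, 7.36 and 7.49 in adult cells.

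**Figure D4:**
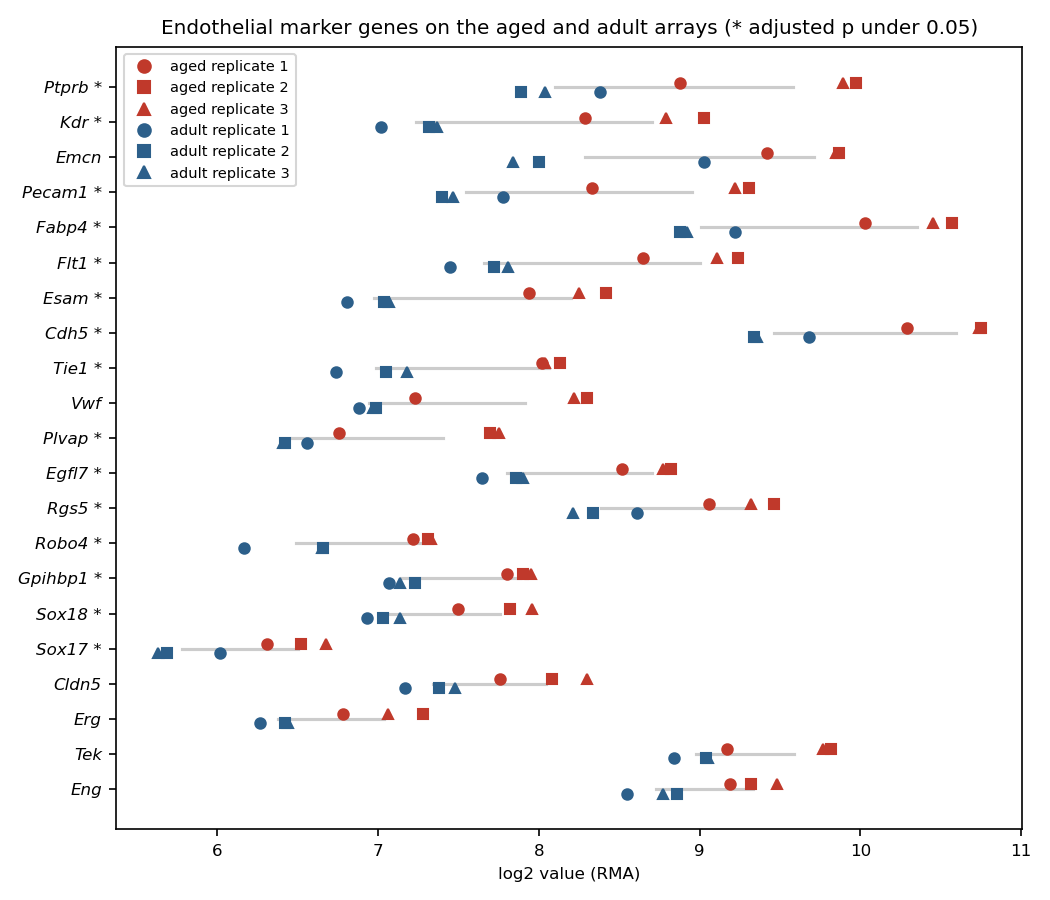
Log2 values of the 21 measured endothelial markers on the 3 aged (red) and 3 adult (blue) arrays, sorted by difference, with a line between the group means. All aged values lie to the right of all adult values of the same gene; 15 genes carry an asterisk for an adjusted p under 0.05.

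Fewer markers of other cell types passed. Of 16 smooth muscle and pericyte markers 3 rose (18.8%, against 3.28% of all genes). They were Kcnj8, a potassium channel subunit (0.91 ± 0.18), Pdgfrb, the PDGF receptor of mural cells (0.82 ± 0.17), and Rgs5, which is on the endothelial list too. For 7 of the 16 the groups did not overlap on the higher side, against 10.2% of all genes. The mural list averaged 8.14, 8.32 and 8.28 on the aged arrays, against 7.97, 7.88 and 7.87 on the adult arrays. Of 20 fibroblast markers none passed. For 8 all aged arrays lay above all adult arrays (10.2% of all genes), and for 2 all lay below (5.78% of all genes). Among the 8 were the proteoglycans Prg4 and Dcn and the transcription factor Osr1 (1.36 ± 0.36, 0.66 ± 0.25 and 0.90 ± 0.28, adjusted p = 0.0566, 0.175 and 0.108). The 2 were the collagens Col1a1 and Col1a2 (-0.66 ± 0.17 and -0.42 ± 0.13). Prg4 and Osr1 passed upwards without adult replicate 1 (adjusted p = 0.0281 and 0.0115), and Prg4 also without aged replicate 1. Col1a1 and Col1a2 passed downwards without adult replicate 1 (adjusted p = 0.00511 and 0.00585). None of 21 macrophage, 14 neutrophil or 8 erythroid and platelet markers passed. Of 10 Schwann cell markers 2 rose (20%, against 3.28% of all genes), Cdh19 and Mbp (0.55 ± 0.14 and 0.37 ± 0.09). Cdh19 was near or under the mean receptor signal on adult replicates 2 and 3, with 5.10, 5.31 and 4.98 in aged cells, against 4.80, 4.50 and 4.44 in adult cells. Of 8 tendon markers 1, Mkx, rose (1.14 ± 0.13) and 0 fell, which is 12.5%, against 3.28% of all genes. The others, among them Scx and Comp (-0.28 ± 0.17 and 0.11 ± 0.11), did not pass. Of 11 mast cell markers 1, Gata2, also a factor of endothelium, rose (0.47 ± 0.11), which is 9.09%, against 3.28% of all genes.

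The lipid genes that rose included carriers of fatty acids that muscle capillaries also express. Fabp4, a fatty acid carrier on both the endothelial and the adipocyte list, had 10.03, 10.57 and 10.45 in aged cells, against 9.22, 8.88 and 8.92 in adult cells (1.34 ± 0.17, adjusted p = 0.00138). Cd36, a fatty acid receptor, had 9.75, 10.29 and 10.17 in aged cells, against 8.75, 8.41 and 8.34 in adult cells (1.57 ± 0.26, adjusted p = 0.00567). Pparg, the nuclear receptor of fat cell formation, rose by 0.81 ± 0.14. These were 3 of 29 lipid genes (10.3%, against 3.28% of all genes), and none fell. Of 11 adipocyte markers 2, Fabp4 and Pparg, rose and 0 fell (18.2%, against 3.28% of all genes). Without adult replicate 1, 3 of the 11 passed upwards and 1 downwards, against 20.3% and 19.1% of all genes. The adipocyte-restricted Adipoq and Plin1 did not pass with all arrays (-0.29 ± 0.27 and -0.18 ± 0.21). The endothelial list moved with Fabp4, Cd36 and Pparg, and its part in their rise was not tested.

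In the Notch pathway, which keeps satellite cells at rest, 6 of 25 genes rose and 0 fell (24%, against 3.28% of all genes; median 0.22). Dll4, a ligand, had 7.38, 7.73 and 7.92 in aged cells, against 6.48, 6.59 and 6.55 in adult cells (1.14 ± 0.13, adjusted p = 0.000842). The target genes Nrarp, Hey2 and Hes1 rose by 0.64 ± 0.11, 0.59 ± 0.13 and 0.43 ± 0.10, the coactivator Maml2 by 0.88 ± 0.19 and Dtx1, a modulator, by 0.50 ± 0.12. Dll4 and Hey2 are also genes of arterial endothelium. The endothelial list was higher on the same arrays, and its part in these rises was not tested.

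Of 42 genes of TGF-beta and BMP signalling 7 rose and 0 fell (16.7%, against 3.28% of all genes; median 0.22). Id3, a BMP target that blocks bHLH factors such as Myod1, had 10.75, 10.50 and 10.59 in aged cells, against 9.82, 9.74 and 9.77 in adult cells (0.84 ± 0.11, adjusted p = 0.00146). Smad7, a feedback inhibitor, had 8.21, 7.89 and 7.90 in aged cells, against 7.26, 7.23 and 7.21 in adult cells (0.77 ± 0.10, adjusted p = 0.00197). The ligand Bmp2 rose by 0.77 ± 0.13, Smad9, a BMP signal carrier, by 0.61 ± 0.11 and Inhbb, an activin subunit, by 0.78 ± 0.16. The receptors Tgfbr2 and Bmpr1b rose by 0.52 ± 0.09 and 0.56 ± 0.13. Id3, Smad7 and Bmp2 were highest on aged replicate 1, the aged array with high receptor background, and passed in all 6 fits without an array.

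FGF2 has been described as a signal of the aged niche that draws satellite cells out of rest. Fgf2 had 7.78, 8.05 and 8.06 in aged cells, against 7.37, 7.20 and 7.23 in adult cells (0.70 ± 0.10, adjusted p = 0.00267). It was the only 1 of 24 genes of FGF signalling and its brakes to pass (4.17%, near the 3.5% of all genes), and no aged array overlapped an adult array. The receptor Fgfr1 differed by -0.06 ± 0.10. Of 18 genes of the p38 MAPK pathway none passed, with Mapk14 at 0.06 ± 0.10. Among 39 Wnt genes 1, the receptor Fzd3, rose (0.74 ± 0.12), which is 2.56%, near the 3.28% of all genes. The matrix receptor Itgb1 and its ligand Fn1, both described as changed in the old niche, differed by 0.07 ± 0.13 and -0.09 ± 0.18.

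Immediate early genes, which respond within minutes to stimuli that include enzymatic dissociation, were the pathway list with the highest share of calls. Of 32 measured, 8 rose and 0 fell (25%, against 3.28% of all genes higher in aged cells), and the median was 0.29. For 18 the groups did not overlap on the higher side, as for 10.2% of all genes. Klf4, a Krüppel-like factor, had 9.46, 9.51 and 9.39 in aged cells, against 8.31, 8.65 and 8.71 in adult cells (0.90 ± 0.11, adjusted p = 0.00105). Ier3, a stress-induced survival gene, had 8.13, 7.76 and 7.62 in aged cells, against 6.84, 6.79 and 6.60 in adult cells (1.09 ± 0.14, adjusted p = 0.00134). Klf2, Ier5 and Klf6 rose by 0.84 ± 0.10, 0.77 ± 0.12 and 0.75 ± 0.16.

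Atf3, a stress-induced repressor, had 11.25, 10.94 and 10.84 in aged cells, against 9.0, 10.20 and 10.23 in adult cells (1.2 ± 0.28, adjusted p = 0.0339). Its difference was 0.79 without adult replicate 1, the low array. Cebpd and the chaperone Dnajb1 rose by 0.60 ± 0.14 and 0.56 ± 0.13, and Dusp1, an inducible phosphatase, did not pass (0.21 ± 0.11). The list averaged 9.98, 9.79 and 9.83 on the aged arrays and 9.31, 9.55 and 9.55 on the adult arrays. Of its members 16 were higher on all aged arrays than on any of the other 9, as were 4.72% of all genes. All stages were digested with the same enzymes, and a difference between stages in the response to digestion was not tested.

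Interferon response genes had a median of 0.43, the highest of the 31 pathway lists, and 6 of 33 rose with 0 falling (18.2%, against 3.28% of all genes). Irf1, an interferon-induced transcription factor, had 8.86, 8.87 and 8.87 on the aged arrays, against 7.94, 7.71 and 7.66 on the adult arrays (1.10 ± 0.20, adjusted p = 0.0115). The aged arrays were level to within 0.01. Rsad2 (viperin) and Ifit3, antiviral proteins, had 7.13, 6.77 and 6.82 and 6.54, 7.28 and 7.02 in aged cells, against 6.42, 6.27 and 5.86 and 6.15, 5.89 and 5.95 in adult cells (0.73 ± 0.15 and 0.95 ± 0.22). Irf9, the DNA-binding part of the interferon-activated complex, Parp9 and Parp12 rose by 0.56 ± 0.11, 0.66 ± 0.14 and 0.43 ± 0.10. Without adult replicate 1, 21 of the 33 passed upwards and 1 downwards, against 20.3% and 19.1% of all genes in that fit. No member passed in all 6 fits without an array. Irf1, Irf9 and Parp9 passed in 2 of them and Rsad2 in 4.

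Interferon acts through STAT proteins, which reach DNA either with Irf9 at interferon-stimulated response elements or as dimers at a shorter palindrome. The 4 promoters below are shown because their genes rose and the window printed holds 1 of these motifs. Each is the RefSeq window of GRCm38.p6 from 250 bases before to 50 after the annotated start, printed on the gene's strand. In Ifit3 (chr19:34583279-34583578, plus strand) and Rsad2 (chr12:26456403-26456702, minus strand) the capitals mark the response element core, which is GAAA, 2 bases of any kind and GAAA, on either strand. Its first base lies at -156 and -122 from the start in Ifit3 and at -120 in Rsad2. In Irf1 (chr11:53769764-53770063, plus strand) and Socs3 (chr11:117969317-117969616, minus strand) the capitals mark the STAT palindrome TTCNNNGAA, the same on both strands, with its first base at -90 and -154. The palindrome was searched after the values were seen. Another RefSeq window of Irf1 (chr11:53770223-53770522, plus strand) held no match to it and is not printed.
Ifit3: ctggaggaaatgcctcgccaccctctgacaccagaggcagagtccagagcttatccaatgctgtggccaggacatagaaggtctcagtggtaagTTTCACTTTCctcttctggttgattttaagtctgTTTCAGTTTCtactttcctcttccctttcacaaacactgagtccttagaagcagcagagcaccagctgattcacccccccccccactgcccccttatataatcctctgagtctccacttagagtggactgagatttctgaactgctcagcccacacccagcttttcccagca
Rsad2: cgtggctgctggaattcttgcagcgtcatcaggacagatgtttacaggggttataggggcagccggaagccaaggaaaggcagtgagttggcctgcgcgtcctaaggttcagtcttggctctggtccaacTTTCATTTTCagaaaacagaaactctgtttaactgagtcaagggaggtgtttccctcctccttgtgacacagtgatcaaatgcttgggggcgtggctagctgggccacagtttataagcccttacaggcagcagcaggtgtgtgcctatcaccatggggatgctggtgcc
Irf1: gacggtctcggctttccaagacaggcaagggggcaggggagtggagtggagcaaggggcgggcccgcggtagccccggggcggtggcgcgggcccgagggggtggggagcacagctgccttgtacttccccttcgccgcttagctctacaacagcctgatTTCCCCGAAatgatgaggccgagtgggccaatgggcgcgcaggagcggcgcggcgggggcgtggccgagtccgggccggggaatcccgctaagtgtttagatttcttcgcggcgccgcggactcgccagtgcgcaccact
Socs3: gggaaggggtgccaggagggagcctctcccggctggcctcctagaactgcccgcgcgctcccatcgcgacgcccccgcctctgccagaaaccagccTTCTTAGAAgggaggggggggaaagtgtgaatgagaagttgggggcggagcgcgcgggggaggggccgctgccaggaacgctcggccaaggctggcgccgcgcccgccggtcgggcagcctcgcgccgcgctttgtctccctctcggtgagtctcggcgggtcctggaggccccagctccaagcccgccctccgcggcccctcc
The response element core occurs in 3.44% of 32851 mouse promoter windows, and the STAT palindrome in 8.3%. Among the interferon genes that rose, 2 of the 5 with a window held the core, and among those that did not pass 10 of 18 did, so the motif did not separate them. Among the JAK-STAT genes that rose 1 of the 4 with a window, Socs3, held the STAT palindrome, and among those that did not pass 2 of 24 did. A match describes the letters of the window and is not evidence of binding.

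JAK-STAT signalling is higher in old satellite cells in published mouse work, where it limits their repair of muscle. Of 36 genes 4 rose and 0 fell (11.1%, against 3.28% of all genes; median 0.19). Socs3, its feedback inhibitor, had 10.88, 10.37 and 10.59 in aged cells, against 9.68, 9.90 and 9.80 in adult cells (0.82 ± 0.18, adjusted p = 0.0266). Pim1, a kinase induced by STATs, had 8.81, 8.36 and 8.26 in aged cells, against 7.48, 7.56 and 7.56 in adult cells (0.94 ± 0.13, adjusted p = 0.00245). Both were highest on aged replicate 1, the aged array with high receptor background, and no aged array overlapped an adult array.

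Osmr, the receptor of oncostatin M, rose by 1.11 ± 0.21. Il6 passed at 3.72, 3.57 and 3.33 in aged cells, against 2.92, 2.85 and 3.00 in adult cells (0.62 ± 0.15, adjusted p = 0.0461), but every value was under the mean receptor signal of its array. Jak2 and Stat3 did not pass (0.51 ± 0.14, adjusted p = 0.067, and 0.23 ± 0.10, adjusted p = 0.221), though Jak2 passed without adult replicate 1 (0.65, adjusted p = 0.00351) and without aged replicate 1 (0.59, adjusted p = 0.0302). Of 33 inflammatory and secreted factors 5 rose (15.2%, against 3.28% of all genes). They were C4b of the complement system (0.66 ± 0.12), Nfkbia, the inhibitor of NF-kappa-B (0.51 ± 0.10), the chemokines Cxcl12 (0.90 ± 0.20) and Ccl11 (0.87 ± 0.22), and Il6. In antigen presentation the class I gene H2-Q4 rose (1.14 ± 0.18), as 1 of 20 (5%, against 3.28% of all genes).

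Jchain, the joining chain of secreted antibodies and a gene of plasma cells, passed (3.15 ± 0.75, adjusted p = 0.0371), but was not high on all aged arrays. It stood at 4.54, 8.50 and 8.42 on the aged arrays, against 4.25, 3.84 and 3.92 on the adult arrays. Adult replicates 2 and 3 were under the mean receptor signal of their arrays, so the size of the difference is uncertain. Aged replicate 1 was close to the adult level, and the gene passed in 2 of the 6 fits without an array. The other 20 measured lymphocyte and plasma cell markers did not pass, with Mzb1 at 0.33 ± 0.16 (0.50 and past the test without aged replicate 1), Sdc1 at 0.01 ± 0.14 and Prdm1 at 0.26 ± 0.14. The list as a whole averaged 5.41, 5.66 and 5.70 on the aged arrays, against 5.27, 5.52 and 5.55 on the adult arrays.

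Cell cycle genes spread widely over the adult arrays. Mki67, present in cycling cells, had 7.38, 6.46 and 6.15 in aged cells, against 9.28, 6.58 and 6.44 in adult cells (-0.77 ± 0.57, adjusted p = 0.405), and its difference was 0.15 without adult replicate 1. None of 33 G2 and M phase genes passed, and their median moved to 0.03 without that array, against -0.57 with it. None of 29 S phase genes passed. Ccnd1, the cyclin of cell cycle entry, had 9.66, 9.25 and 9.32 in aged cells, against 10.58, 9.91 and 9.96 in adult cells (-0.74 ± 0.17, adjusted p = 0.0318). Its fall passed without adult replicate 1 as well, at -0.53.

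Among inhibitors of the cell cycle and genes of senescence 3 of 24 rose and 1, Ccnd1, fell (16.7%, against 3.5% of all genes). Ccnd2, another D-type cyclin, rose by 0.80 ± 0.14, Igfbp5, an IGF-binding protein, by 0.44 ± 0.10 and Gadd45a, a DNA damage and stress gene, by 1.13 ± 0.28. Gadd45a had 9.58, 8.41 and 8.20 in aged cells, against 7.47, 7.65 and 7.66 in adult cells. Its difference was 0.71 without aged replicate 1, the high array, and it passed in 3 of the 6 fits without an array. Cdkn2a, which encodes the inhibitor p16 and has been tied to loss of rest in very old mice, had 5.91, 5.54 and 5.63 in aged cells, against 5.86, 6.05 and 5.80 in adult cells (-0.20 ± 0.12, adjusted p = 0.318). Cdkn1b, the inhibitor p27, differed by -0.09 ± 0.10. E2f7, a repressor of cell cycle genes, fell by 0.46 on the log2 scale (SE 0.11), with 6.05, 6.14 and 6.09 in aged cells, against 6.61, 6.47 and 6.58 in adult cells.

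Falls were few and smaller than the rises. Actc1 had 8.27, 7.67 and 7.57 in aged cells, against 10.50, 9.05 and 8.91 in adult cells, which is 3.14-fold lower (-1.65 ± 0.35, adjusted p = 0.0241). Its difference was -1.14 without adult replicate 1, the array with the highest level, and still passed. Alpl, tissue-nonspecific alkaline phosphatase, had 8.25, 8.18 and 8.28 in aged cells, against 8.56, 9.36 and 9.34 in adult cells (-0.85 ± 0.18, adjusted p = 0.0229). Here adult replicate 1 was the lowest adult array and lay near the aged level.

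Matrix genes made up part of the falls. Col26a1, a minor collagen, and Serpinh1, the chaperone of collagen folding, fell by 0.78 and 0.58 on the log2 scale (SE 0.18 and 0.11). Sparc, a collagen-binding matrix protein, had 11.51, 11.48 and 11.49 in aged cells, against 11.97, 11.88 and 11.85 in adult cells (-0.41 ± 0.09, adjusted p = 0.0339), and Col6a1 had 9.04, 9.05 and 8.99, against 9.52, 9.44 and 9.34 (-0.41 ± 0.09). Col6a1 was the only one of 28 collagens on the list to pass (3.57%, near the 3.5% of all genes), and the list's median was -0.16. Col1a1 did not pass (-0.66 ± 0.17, adjusted p = 0.0595), and without adult replicate 1 the list had 9 falls and 1 rise, against 19.1% and 20.3% of all genes.

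Of 39 other matrix and matrix turnover genes 5 rose and 1, Sparc, fell (15.4%, against 3.5% of all genes). Timp3, an inhibitor of metalloproteases, had 10.03, 10.16 and 10.05 in aged cells, against 9.17, 8.93 and 9.0 in adult cells (1.04 ± 0.12, adjusted p = 0.000577). Lama4, a laminin chain of vessel basement membranes, rose by 1.00 ± 0.17, Lox, a collagen cross-linker, by 0.81 ± 0.19, Thbs2 by 0.79 ± 0.20 and the protease Adamts1 by 0.40 ± 0.10. Other falls with small differences were Tac4, a tachykinin (-0.74 ± 0.18), Trmt112, a cofactor of methyltransferases (-0.69 ± 0.16), Fhl3, a LIM-domain protein of muscle (-0.68 ± 0.16), and Phf5a, a splicing factor (-0.59 ± 0.14). None of these last 4 passed with array background as a covariate, at adjusted p between 0.0601 and 0.0985. Of all calls, 496 of the 654 rises and 30 of the 43 falls passed in that fit. Some named rises did not, among them Cdh5, Tshr and Akr1c14 (adjusted p = 0.0935, 0.0723 and 0.0613). The rest of the 20 largest falls (Micall2, Tubb4a, Cacna2d4, H2ac1, Tmem145, Popdc2, Kcng1, Scml4 and Hmx2, besides those named above) lay between -0.69 and -0.45.

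The metabolic and hormone lists with a call held between 1 and 3 rises each and no fall. The share was 14.3% of glycolysis genes and 11.1% of insulin and IGF genes, against 3.28% of all genes. Of 34 antioxidant genes the glutathione transferases Gsta4 and Gstm2 rose (0.72 ± 0.15 and 0.77 ± 0.17), which is 5.88% of that list. Of 21 glycolysis genes Ldhb, a lactate dehydrogenase subunit, Slc16a1, a lactate carrier, and Slc2a3, a glucose carrier, rose (0.63 ± 0.11, 0.48 ± 0.10 and 0.47 ± 0.10), and of 27 insulin and IGF genes Igf2, Rictor and Igfbp5 did (0.57 ± 0.11, 0.56 ± 0.12 and 0.44 ± 0.10). Tshr, the thyrotropin receptor, had 10.09, 10.49 and 10.55 in aged cells, against 9.48, 9.80 and 9.75 in adult cells (0.70 ± 0.17, adjusted p = 0.0451). Akr1c14, a steroid-metabolising reductase, rose by 0.92 ± 0.20, the clock gene Cry2 by 0.46 ± 0.09 and the limb homeobox gene Meis2 by 0.57 ± 0.14. The oestrogen receptor Esr1 and its target Greb1 did not pass (-0.03 ± 0.11 and 0.31 ± 0.26), nor did the neuropeptide Gal, the ligand Wnt4 or the repressor Bcl6 (0.20 ± 0.30, 0.16 ± 0.22 and 0.15 ± 0.10). Without adult replicate 1 Gal and Bcl6 passed, at 0.66 and 0.24 (adjusted p = 0.00949 and 0.0473), and Wnt4 was at -0.12.

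None of 43 oxidative phosphorylation, 40 proteasome and autophagy, 29 polycomb and chromatin or 10 housekeeping genes passed. Without adult replicate 1, 15 oxidative phosphorylation genes were higher and 0 lower, and 16 proteasome and autophagy genes were higher and 1 lower, against 20.3% and 19.1% of all genes in that fit. In the same fit 731 of 1190 olfactory and vomeronasal receptor genes (61.4%) were lower in aged cells and 3 higher. With all arrays 1 was lower and 3 were higher. Array background moved with the groups in that fit, and its part in the added calls was not tested.

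**Figure D5:**
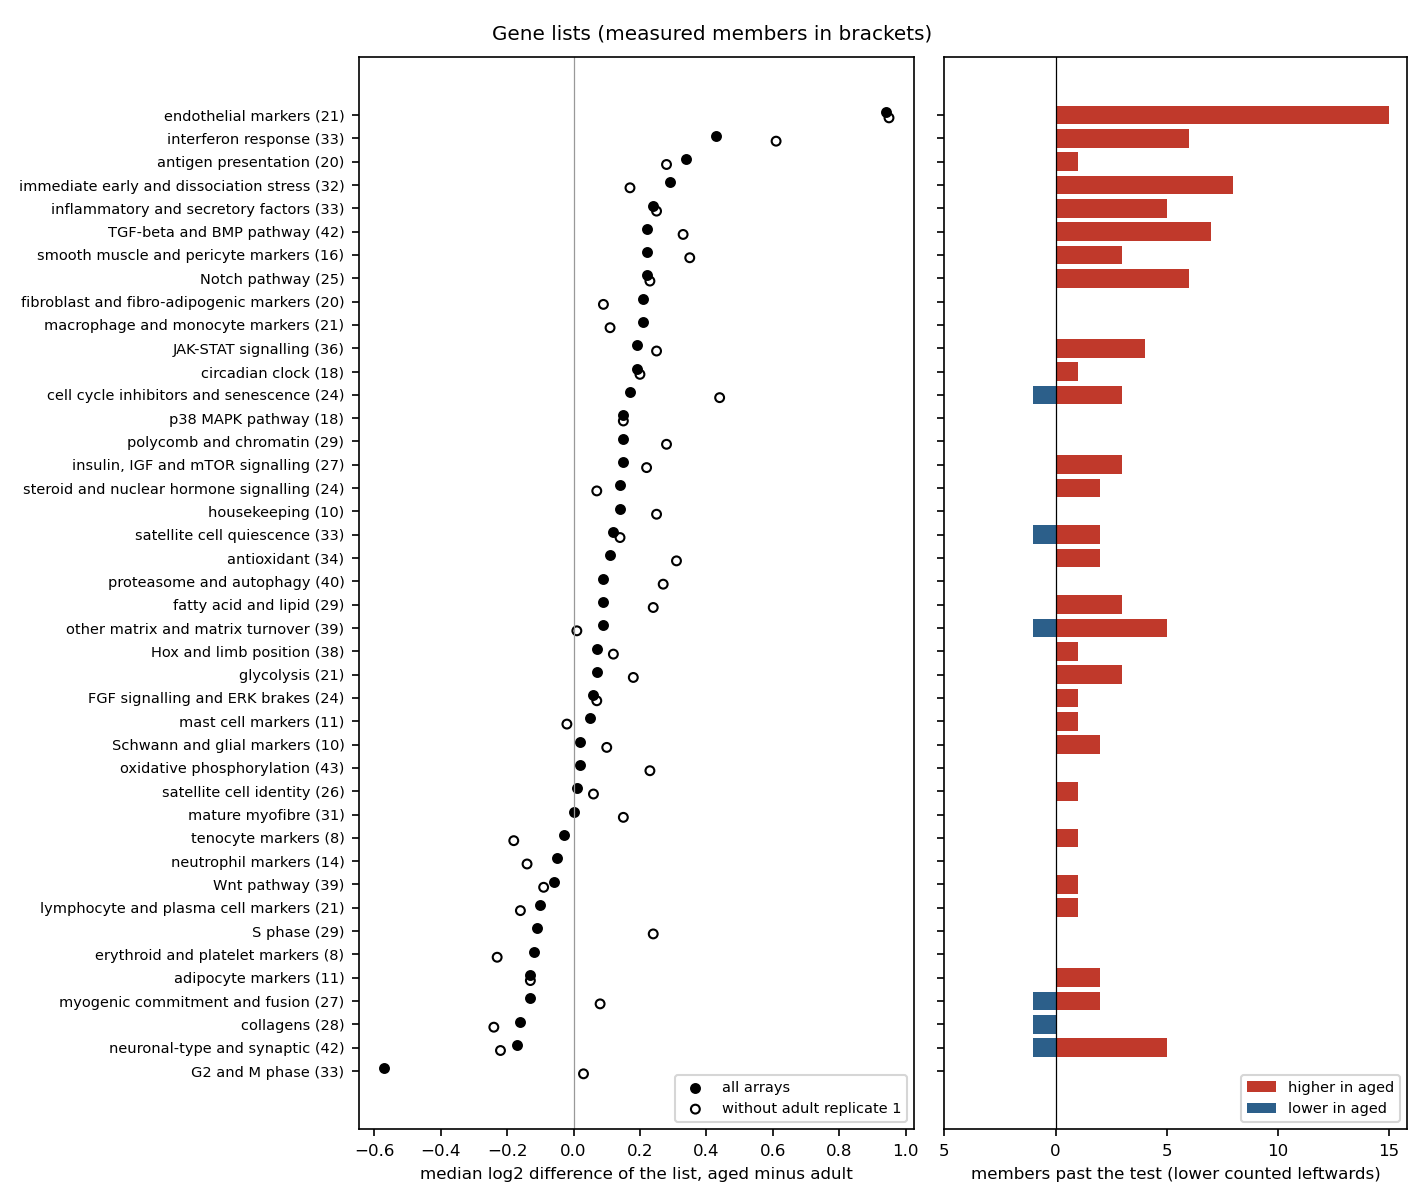
Left, median log2 difference of each of the 42 gene lists with all arrays (filled) and without adult replicate 1 (open); right, members higher in aged cells (red, to the right) and lower (blue, to the left), with measured members in brackets. Endothelial markers lie highest at 0.94 with 15 members higher, and the G2 and M phase list lies lowest at -0.57 and moves to 0.03 without adult replicate 1.

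Over all lists, 94 of 1037 measured members passed, 89 higher and 5 lower in aged cells. Of all genes 3.5% passed, 3.28% higher and 0.216% lower. Members were chosen with results of these arrays in view, so the counts are given without a test. Across the 4 stages, 383 of the 654 rises (58.6%) were higher on all 3 aged arrays than on each of the other 9 arrays, among 941 such genes in all (4.72% of genes tested). Of the 43 falls, 17 were lower on all aged arrays than on the other 9, among 369 such genes in all. For 382 of the 654 rises and 20 of the 43 falls the adolescent mean lay above the adult mean. The adult arrays enter both differences and the share over all genes was not counted, so no course over age is read from these counts. In Akr1c14 the adolescent mean lay below the adult arrays, with means of 4.33 in fetal and 5.35 in adolescent cells. The gene had 8.74, 8.83 and 8.65 on the adult arrays, and 9.41, 9.84 and 9.73 on the aged arrays.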

How the data were processed

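Array signals of 12 samples were analysed, 3 per stage, grouped by the titles in the labels. The deposited values are log2 signals that the authors made with Affymetrix Expression Console 1.2.1.20 and its RMA summary, per the submitters' processing notes, from ZsGreen+ cells' total RNA amplified and biotin-labelled, per the labels' protocols. They were used as given. RMA fits arrays together and compresses low signals, so differences of dim genes can be understated. They can also follow array background: the olfactory and vomeronasal receptor genes had a median difference of -0.28 with all arrays. It was -0.5 without adult replicate 1. The genome build is not given in the sources used here. Value columns left unused numbered 0.

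Of 35556 probe sets 21789 had 1 gene symbol in the platform annotation, 1621 had several and 12146 were not named here. These gave 19938 genes, 999 of them with several probe sets. A linear model with a mean for each of the 4 stages was fitted to all 12 arrays with limma 3.58.1 in R 4.3.3 (8 residual and 4.47 prior degrees of freedom) and moderated variances, and p-values were adjusted by Benjamini-Hochberg over all genes. With 3 arrays against 3 an exact permutation test cannot give a p under 0.1. The method was tested on simulated arrays of 19938 genes for aged against adult: 26 of 67 genes changed 1.5-fold, 54 of 67 changed 2-fold and 64 of 66 changed 4-fold were recovered, with 5 false calls. The simulated noise was independent between arrays, with 1 spread per gene. It lacked the likeness of replicates 2 and 3 and the shifts in array background, so these numbers do not measure error in the real arrays.

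The comparison, the 31 pathway and 11 marker lists (1037 of 1111 names measured) and the named genes were chosen with earlier results of these data known. The text names the 20 strongest changes each way (past the test, groups not overlapping, higher group's mean 6 or more), at most 4 members per list by smallest p, the largest changes without adult replicate 1, and 28 fixed genes, of which 27 were measured and Cdkn1a was not analysed here. Predicted genes, clones, small RNAs, receptors of smell and antigen receptor segments were left out of the largest changes. List members beyond 4 that rose or fell, members named as not passing, Kdm5d, Eif2s3y and immunoglobulin genes were named after their values were seen. Alternatives were other normalizations, a floor and filters at 6 and 7, mean probe sets, the 6 arrays alone, a trended robust variance, array weights, array background as a covariate, a replicate block, a 1.5-fold test and each array left out.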

Additional observations from a re-analysis of the deposited data

How the results depend on the processing

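The count of genes past the test, 697, stayed within 1.5 times under normalization, centring, floor, filters, mean probe sets, variance model, covariate and block. It was 176 with the 6 arrays alone, 13 against a 1.5-fold change, 15776 with array weights, 2 with replicates 2 and 3 averaged and 11689 without replicate 1 of both stages, and ran from 214 (without aged replicate 2) to 7844 (without adult replicate 1) when single arrays were left out. The averaging and the double omission were chosen after seeing the data. The 155 genes changed at least 2-fold became 87 with a floor at 6, 13 against a 1.5-fold change, 555 with array weights, 2 with averaging and 643 without replicate 1 of both stages, and ran from 80 (without aged replicate 2) to 306 (without adult replicate 1). The 94 list members became 32, 2, 777, 0 and 520 with 6 arrays, the 1.5-fold test, array weights, averaging and the double omission, and ran from 31 (without aged replicate 3) to 371 (without adult replicate 1).

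The array weights ran from 0.0648 (adult replicate 1) to 34.06 (aged replicate 3) and their estimation did not converge. Under them Alas2 and Wnt4 changed sign, to -0.31 and -0.32. Of 104 named genes past the test, 87 also passed with the background covariate, 41 with the 6 arrays alone and 104 without adult replicate 1, all in the same direction. In that last fit 39.3% of all genes passed, with all 697 genes among them, so it is a weak check. Without aged replicates 2 and 3 in turn 46 and 44 passed, against a 1.5-fold change 10, and with replicates 2 and 3 averaged 2. The cause of these changes was not tested.

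The replicate numbers were not taken to pair the samples: deviations of aged and adult arrays with the same number from their stage means correlated at -0.4353, -0.3935 and -0.2374. With the replicate number as a block 518 genes passed (493 higher and 25 lower), 147 of them at least 2-fold, with 74 list members. Scanner files were not analysed here, so array background could be read only through the receptor genes.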

Other observations

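Immunoglobulin genes, which are made by B cells and plasma cells, were followed array by array after the values of Jchain had been seen. None of the 11 measured passed in limma's test with all arrays, 5 passed without adult replicate 1 and 9 without aged replicate 1. Igkv5-43, a kappa light chain segment, had 3.08, 5.87 and 5.70 on aged replicates 1, 2 and 3, against 3.2, 2.69 and 3.02 on adult replicates 1, 2 and 3 (adjusted p = 0.074). Another segment, Igkv8-30, had 3.79, 6.58 and 6.66, against 3.66, 3.92 and 3.86. In both segments aged replicate 1 and all adult arrays were under the mean receptor signal of their arrays, so no size of difference is given. For 9 of the 11, aged replicates 2 and 3 both lay above aged replicate 1 and all adult arrays, which held for 18.6% of all genes. Such segments share sequence, so which of them the probes read is uncertain. Igha, the heavy chain of IgA, differed in the adult arrays too, with 6.97, 8.57 and 8.58 in aged cells, against 4.83, 7.25 and 7.35 in adult cells.

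Xist, transcribed from the inactive X chromosome, and Y-linked genes were both present on all arrays of the comparison. Xist had 11.51, 11.82 and 11.75 on the aged arrays, against 11.75, 11.71 and 11.67 on the adult arrays. The Y-linked Kdm5d had 6.24, 7.13 and 7.07 on the aged arrays, against 6.94, 6.01 and 6.07 on the adult arrays, and Eif2s3y had 6.74, 7.62 and 7.51, against 7.69, 6.56 and 6.52. The 3 arrays low for the Y-linked genes were aged replicate 1 and adult replicates 2 and 3, the same arrays that were high for olfactory and vomeronasal receptors.

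Without adult replicate 1 the largest falls held Srsy and Macrod2, at -2.05 and -1.97. Srsy had 7.0, 4.45 and 4.31 on the aged arrays, against 4.48, 7.30 and 7.30 on the adult arrays, and Macrod2 had 7.88, 7.34 and 7.21, against 6.89, 9.60 and 9.29. Srsy was high on the 3 arrays with high receptor signal and low on the other 3. Neither passed with all arrays (adjusted p = 0.386 and 0.238). Ly96, a partner of the endotoxin receptor, had a difference of 2.06 in that fit and 1.04 with all arrays, at 6.38, 6.78 and 6.86 in aged cells, against 7.67, 4.45 and 4.78 in adult cells.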
